A study of Mus musculus with 10 samples.

Results

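The genes of glycolysis, lactate metabolism and the pentose phosphate pathway were followed in hypertrophied hepatic stellate cells (hypHSCs) and quiescent hepatic stellate cells (qHSCs) of the mouse liver. They are 36 genes listed by symbol, and all 36 were found among the 25233 entries of the expression table that carry a gene symbol (62322 entries in all). The bulk RNA sequencing compared 5 hypHSC preparations with 5 qHSC preparations, each sequenced as 1 library from C57BL/6J mice, and asked how the transcriptome of the hypertrophied cells differs from that of quiescent cells. The hypHSCs came from mice fed the CDAHFD, a high-fat diet that lacks choline and has defined amino acids, used as a model of steatohepatitis with fibrosis. Mice of hypHSC 1 and 2 had 13 weeks of this diet and an age of 19 weeks, and those of hypHSC 3, 4 and 5 had 12 weeks and an age of 18 weeks. For qHSCs, the mice ate standard diet and were aged 36 weeks for qHSC 1, 2 and 5 and 34 weeks for qHSC 3 and 4. The labels name no transgene or engineered allele. Both kinds of cell were enriched on a density gradient and sorted by their own fluorescence, hypHSCs in a green and qHSCs in a blue gate. Diet, age, liver dissociation and sorting gate differed together between the groups, so their effects cannot be told apart. The preparations were chosen for RNA quality from more samples than mice, so libraries may share an animal and p-values measure the spread between preparations.

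Glycolysis splits glucose into pyruvate in the cytosol. Glucose enters through facilitative transporters, hexokinases trap it as glucose 6-phosphate, phosphofructokinase commits it to the pathway, and the lower enzymes yield ATP and pyruvate. Pyruvate is either reduced to lactate, which leaves the cell through monocarboxylate transporters, or enters mitochondria through the pyruvate dehydrogenase complex, which pyruvate dehydrogenase kinases switch off. The pentose phosphate pathway branches off at glucose 6-phosphate, where its oxidative arm makes NADPH and its non-oxidative arm returns sugars to glycolysis. In the liver, glycolytic induction is known in activating stellate cells and in macrophages alike.

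Between 30534719 and 43283589 reads fell on genes with a symbol in hypHSCs, and between 35640104 and 47317028 in qHSCs. The mitochondrial share of reads was 2.21% to 12.8% in hypHSCs, against 1.25% to 1.61% in qHSCs. The cell type of the labels was compared with marker lists. The summed normalized count of 14 quiescent stellate cell markers was 34464 to 68096 in hypHSCs and 1403546 to 2301326 in qHSCs, and all 14 were called lower in hypHSCs, with none at the floor of 3 reads in every library of a group. For 15 macrophage markers the sum was 1172366 to 1692936 in hypHSCs and 7353 to 130877 in qHSCs, and all 15 were called higher. Within qHSCs, the macrophage sum was 130877 in qHSC 4 and 57285 in qHSC 1, against 7353 to 12727 in the other three. Sums for 9 hepatocyte markers overlapped, with 75763 to 267782 in hypHSCs, the highest in hypHSC 5, and 80294 to 176467 in qHSCs. For 7 neutrophil markers the sums were 1454 to 5827 in hypHSCs and 0 to 112 in qHSCs, where *Camp*, *Ngp* and *Retnlg* stayed at or under the floor. Of these markers 3 were tested and called higher, *S100a8*, *S100a9* and *Retnlg*. They passed the filter on low values through the hypHSC libraries, which largely set the direction of these calls. The untested *Ly6g*, *Camp*, *Ngp* and *Mpo* were low in both groups. Their means were 2.72, 1.62, 10.2 and 1.62 in hypHSCs and 1.54, 0, 0 and 3.46 in qHSCs. Of 5 cholangiocyte markers 3 were tested and all 3 called higher, with sums of 519 to 2874 against 4.72 to 56.1 and *Cftr* at 0 in every qHSC library. *Krt19* and *Epcam* passed that filter in the same way, while *Sox9* had 146 to 1244 in hypHSCs and 4.72 to 37.1 in qHSCs. Sinusoidal endothelial markers gave 1 higher and 3 lower of 7 tested, with sums of 697 to 2831 against 20135 to 37364. These sums were set mainly by *Eng*, with 194 to 2042 in hypHSCs and 18108 to 36372 in qHSCs. *Clec4g* and *Tek* were also lower, *Stab2* was higher (log2 fold change 1.92), and *Pecam1*, *Kdr* and *Cdh5* were not called. The markers of quiescent stellate cells were thus lower and those of macrophages and cholangiocytes higher in the libraries labelled hypHSC than in qHSCs. Of the neutrophil markers, *S100a8*, *S100a9* and *Retnlg* were higher there. The name hypHSC is used below as the label of the preparations. In bulk RNA, fewer cells of a type and less RNA per cell cannot be told apart, and the part of RNA from any of these cell types in the differences below was not tested.

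Of the listed genes, 18 differed in level between the groups by the rule used here, which calls a gene when its log2 fold change reached 1 in either direction with an adjusted p no greater than 0.05. The filter on low values asked for 10 or more normalized counts in 5 or more of the 10 libraries. All 36 members passed it, and 18 of them (50%) were called, against a background of 39.5% of the 14630 genes tested. Of these, 14 (38.9%) were called higher in hypHSCs, where the background was 17.8%, and 4 (11.1%) lower, where it was 21.7%. The genes called higher were *Hk2*, *Hk3*, *Aldoc*, *Gapdh*, *Pgk1*, *Pgam1*, *Ldhb*, *Slc16a1*, *Pdk1*, *G6pdx*, *Pgls*, *Pgd*, *Tkt* and *Taldo1*, and those called lower were *Pfkl*, *Pfkm*, *Pdk2* and *Pdha1*. The median log2 fold change of the members was 0.96, beside -0.20 over all genes tested. Every hypHSC library lay above every qHSC library for 14 members, against 17.6% of all genes, and below for 4 members, against 22.0%. For these 18 members the exact two-sided permutation test gave p = 0.00794, the smallest value 5 libraries against 5 allow. A further 4 members, *Gpi1*, *Pfkp*, *Tpi1* and *Ldha*, passed the p threshold but not the fold threshold, and the other 14 missed the p threshold. When libraries were scaled on *Hprt*, *Pgk1* and *Actb*, the median of all genes shifted from -0.20 to -1.12 and that of the members to 0.03, since a scaling moves all genes alike. The split of the calls moved with it, from 14 higher and 4 lower to 7 higher and 9 lower, to 8 and 8 when libraries were scaled on *Hprt* and *Actb* alone, and to 11 and 6 when scaled to equal totals. The rises of *Pgk1* (0.76), *Pgam1* (0.63), *Ldhb* (0.92), *G6pdx* (0.82), *Tkt* (0.61) and *Pgls* (0.71) were no longer called on *Hprt* and *Actb*, while those of *Hk2*, *Hk3*, *Aldoc*, *Slc16a1*, *Pdk1*, *Pgd* and *Taldo1* were called in every alternative that tested them.

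**Figure D1:**
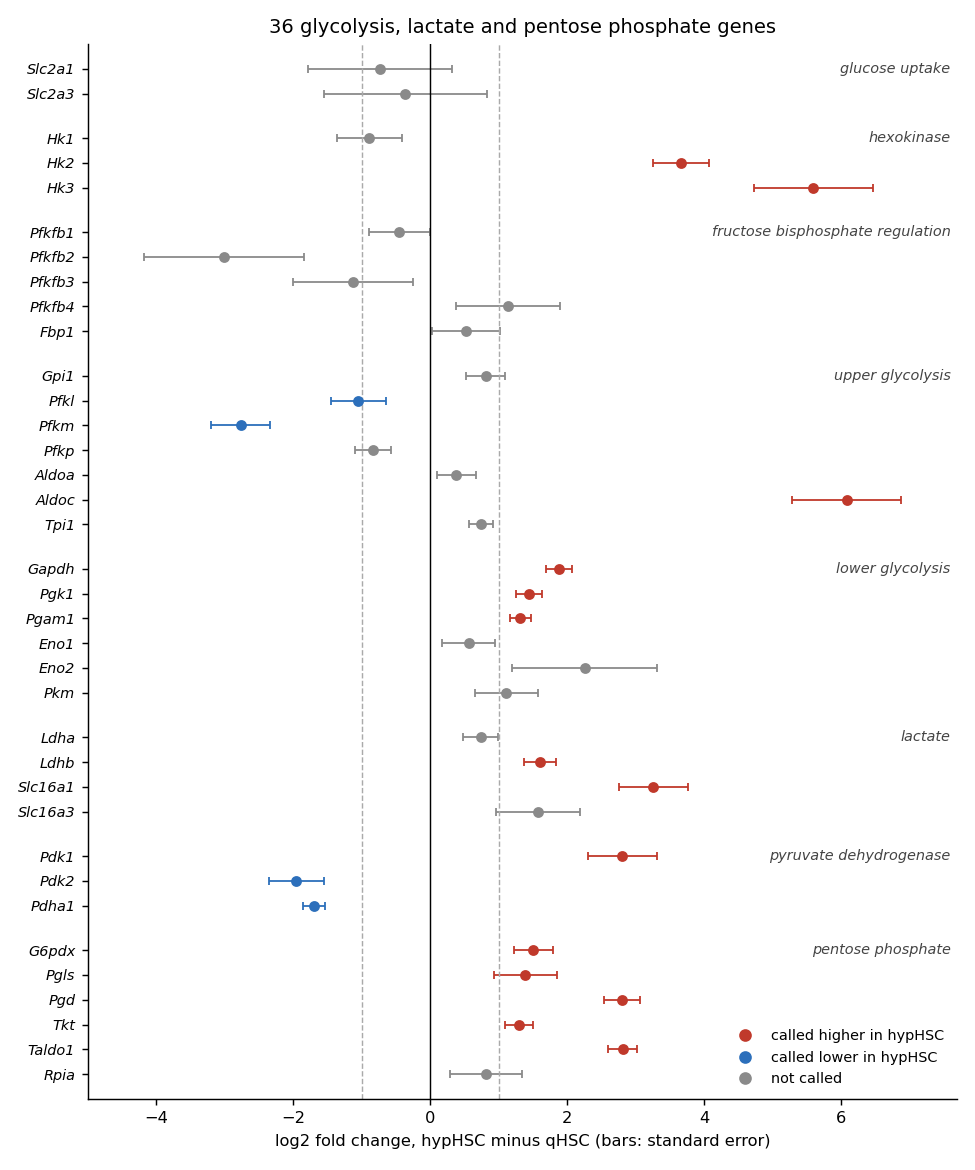
Log2 fold change (hypHSC minus qHSC, horizontal axis) of the 36 genes, ordered by role, with the standard error of limma as bars and dashed lines at the fold threshold. *Aldoc* at 6.08 and *Hk3* at 5.59 lie farthest to the right, all 6 pentose phosphate genes lie above 0 (*Rpia* falls to -0.10 when scaled on *Hprt*, *Pgk1* and *Actb*), and both *Pfkm* and *Pdk2* lie below -1.

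Glucose uptake showed no call. *Slc2a1*, the basal glucose transporter GLUT1, had 15.1 to 1524 normalized counts in hypHSCs (median 919) and 521 to 761 in qHSCs (median 598), and its fold change of -0.74 (SE 1.05) turned to 0.39 without hypHSC 5. *Slc2a3*, the high-affinity transporter GLUT3, had 0 to 106 normalized counts in hypHSCs and 12.7 to 82.4 in qHSCs (log2 fold change -0.36, SE 1.19), and 0.84 without hypHSC 4, which had no read. The order of the groups for these transporters is therefore not settled by these libraries.

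Hexokinases, which phosphorylate glucose on entry, were, of the 9 isoform families compared, the one whose shares differed most between the groups. *Hk3*, the isoform known from blood leukocytes (chromosome 13, 55153798 to 55169198, GRCm39), had 4332, 7995, 8059, 3028 and 2393 normalized counts in hypHSC 1 to 5 and 227, 12.8, 112, 578 and 36.7 in qHSC 1 to 5. The groups did not overlap, and the highest qHSC values were those of qHSC 4 and qHSC 1, the libraries with the highest macrophage marker sums. The log2 fold change was 5.59 (SE 0.87, limma adjusted p = 0.000312), and 6.88 without qHSC 1 and 4. *Hk2*, the isoform of muscle, fat and proliferating cells that binds mitochondria (chromosome 6, 82702010 to 82751436), had 838, 980.4, 993, 1195 and 1978 normalized counts in hypHSC 1 to 5 and 56.1, 59.6, 175, 162 and 59.2 in qHSC 1 to 5. Its groups did not overlap either, hypHSC 5 was the highest rather than the lowest hypHSC library, and the log2 fold change was 3.66 (SE 0.40, limma adjusted p = 2.78e-05). *Hk1*, the widespread housekeeping isoform, was not called, at 265 to 1756 normalized counts in hypHSCs and 1092 to 2155 in qHSCs (log2 fold change -0.89, SE 0.47, limma adjusted p = 0.14).

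Seen per exon length, the share of *Hk1* among these 3 hexokinases was 7.95% ± 2.43 (SD, n = 5) in hypHSCs and 78.4% ± 18.9 in qHSCs. The share of *Hk3* was 78.0% ± 8.37 in hypHSCs and 16.1% ± 17.6 in qHSCs, where it ran from 1.03% in qHSC 2 to 45.3% in qHSC 4. *Hk2* took 14.0% ± 10.7 in hypHSCs, with 31.3% in hypHSC 5, and 5.45% ± 2.99 in qHSCs. Neither the *Hk1* nor the *Hk3* shares of the groups overlapped, also when lengths were taken from the canonical transcript. These shares are descriptions and were not tested.

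**Figure D2:**
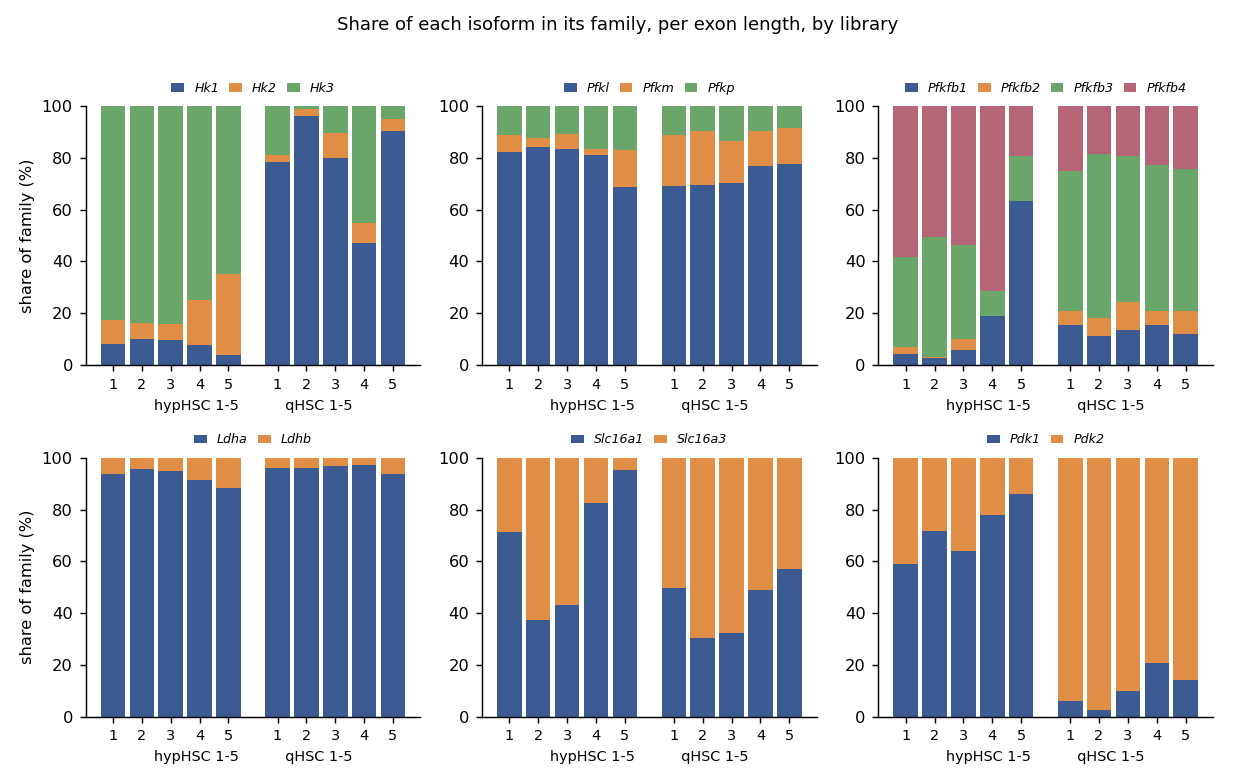
Share of each isoform in its family (vertical axis, percent of the family's level per exon length) in each of the 10 libraries. *Hk3* makes up 64.7% to 84.3% of the hexokinases in hypHSCs and 1.03% to 45.3% in qHSCs, and *Pdk1* 58.9% to 86.1% against 2.36% to 20.6% of the pair with *Pdk2*.

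In the committed step of glycolysis, the muscle-type and liver-type phosphofructokinases were called lower. *Pfkm* (chromosome 15, 97990470 to 98030332) had 199, 118, 169.6, 36.7 and 123 normalized counts in hypHSC 1 to 5 and 969, 1140.0, 513, 646 and 758 in qHSC 1 to 5. The groups did not overlap, and the log2 fold change was -2.77 (SE 0.44, limma adjusted p = 0.000344). *Pfkl* overlapped between the groups (855 to 3898 normalized counts in hypHSCs and 3237 to 6143 in qHSCs), and its call was at the edge of both thresholds (log2 fold change -1.05, SE 0.40, limma adjusted p = 0.048). That call was lost when any of hypHSC 4 (-0.94), hypHSC 5 (-0.68), qHSC 1 (-1.05), qHSC 2 (-1.01), qHSC 4 (-1.02) or qHSC 5 (-0.97) was left out, with adjusted p from 0.0484 to 0.104, and kept in 12 of 27 alternatives. *Pfkp*, the platelet type, was 272 to 725 normalized counts in hypHSCs and 795 to 1021 in qHSCs without overlap, yet its log2 fold change of -0.83 stayed short of the threshold (limma adjusted p = 0.020). *Pfkl* was the largest share of the family in both groups, with 79.9% ± 6.39 in hypHSCs and 72.7% ± 4.19 in qHSCs per exon length.

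None of the genes that set the level of fructose 2,6-bisphosphate, the activator of phosphofructokinase, or that reverse its step was called in the limma fit of all 10 libraries. These are the bifunctional enzymes *Pfkfb1*, *Pfkfb2*, *Pfkfb3* and *Pfkfb4* and the gluconeogenic phosphatase *Fbp1*. *Pfkfb2*, the isoform known from heart, had 28.3, 7.25, 89.8, 0 and 0 normalized counts in hypHSC 1 to 5 and 40.7 to 85.8 in qHSCs, and its fold change of -3.01 (SE 1.17) missed the threshold at an adjusted p of 0.0532. Leaving out hypHSC 1 gave -3.51 (limma adjusted p = 0.0379) and leaving out hypHSC 3 gave -3.92 (limma adjusted p = 0.00883), whereas it was -2.29 without hypHSC 4 (limma adjusted p = 0.118) or hypHSC 5 (limma adjusted p = 0.0955). The count models gave smaller values, -1.21 in DESeq2 (adjusted p = 0.39) and -1.18 in edgeR (adjusted p = 0.43). *Pfkfb4* and *Pfkfb3*, the isoforms often named as hypoxia-responsive, spread widely among hypHSCs. *Pfkfb4* had 25.7 to 689 normalized counts in hypHSCs and 86.2 to 134 in qHSCs (log2 fold change 1.13, SE 0.76), and 1.91 without hypHSC 5 (limma adjusted p = 0.00180). Both count models called *Pfkfb4* higher, at 1.815 in DESeq2 (adjusted p = 0.00875) and 1.821 in edgeR (adjusted p = 0.0352). *Pfkfb3* had 27.2 to 629 in hypHSCs and 229 to 423 in qHSCs (log2 fold change -1.13, SE 0.88). Per exon length, *Pfkfb3* was the largest share of its family in each qHSC library (57.0% ± 3.67), whereas in hypHSCs the largest share was *Pfkfb4* in 4 libraries and *Pfkfb1*, the liver isoform, in hypHSC 5 (63.3%).

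Among the enzymes that turn glucose 6-phosphate into triose phosphates, *Aldoc* had the largest fitted fold change of all members, though *Hk3* exceeded it with a pseudocount of 10 (5.35 against 4.39), without qHSC 4 (6.24 against 5.76) and without qHSC 1 and 4 (6.88 against 6.27). This brain-type aldolase (chromosome 11, 78213899 to 78218611) had 499.9, 438, 346, 335 and 106 normalized counts in hypHSC 1 to 5 and 15.4, 7.67, 6.3, 0.86 and 0 in qHSC 1 to 5. In reads, the qHSC values were 17, 9, 8, 1 and 0, so the last 2 libraries were under the floor of 3 reads. The groups did not overlap, and the log2 fold change was 6.08 (SE 0.79, limma adjusted p = 9.25e-05). *Aldoa*, the aldolase of most tissues, was still 98.8% of the pair per exon length in hypHSCs and 99.97% in qHSCs, and was not called (13717 to 42478 normalized counts in hypHSCs, 21089 to 25644 in qHSCs, log2 fold change 0.38, SE 0.28). *Gpi1*, which isomerises glucose 6-phosphate, had a log2 fold change of 0.81 (SE 0.29, limma adjusted p = 0.0376) and reached 1.07 without hypHSC 5, but its adjusted p exceeded the threshold in 8 of the 10 fits with 1 library left out (up to 0.0848, without hypHSC 1). *Tpi1*, the triose phosphate isomerase, had one of 0.75 (SE 0.18, limma adjusted p = 0.00529), with 9749.5 to 16960.0 normalized counts in hypHSCs and 6537 to 8488 in qHSCs.

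*Aldoc*, *Hk3* and *Hk2* are the members with the 3 largest rises, and their promoters are shown because genes of glycolysis are textbook targets of hypoxia-inducible factors. The sequences are the 250 bases before the annotated starts, 5′ to 3′ on the strand of the gene, from RefSeq on the GRCm38.p6 build, which is not the GRCm39 build of the expression table. Capitals mark the letters ACGTG or GCGTG, the core of a hypoxia response element, on either strand (read as CACGT or CACGC where it lies on the other strand).
Aldoc, start 1, chr11:78322823-78323072, plus strand: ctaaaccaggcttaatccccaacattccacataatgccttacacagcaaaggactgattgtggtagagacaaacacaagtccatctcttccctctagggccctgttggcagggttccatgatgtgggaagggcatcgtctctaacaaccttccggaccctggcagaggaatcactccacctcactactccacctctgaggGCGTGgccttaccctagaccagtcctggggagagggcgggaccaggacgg
Aldoc, start 2, chr11:78323948-78324197, plus strand: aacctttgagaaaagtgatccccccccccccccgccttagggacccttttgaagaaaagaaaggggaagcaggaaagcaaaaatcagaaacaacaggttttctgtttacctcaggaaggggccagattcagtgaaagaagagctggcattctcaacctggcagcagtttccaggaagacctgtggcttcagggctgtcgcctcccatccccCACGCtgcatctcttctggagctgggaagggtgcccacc
Hk3, chr13:55021386-55021635, minus strand: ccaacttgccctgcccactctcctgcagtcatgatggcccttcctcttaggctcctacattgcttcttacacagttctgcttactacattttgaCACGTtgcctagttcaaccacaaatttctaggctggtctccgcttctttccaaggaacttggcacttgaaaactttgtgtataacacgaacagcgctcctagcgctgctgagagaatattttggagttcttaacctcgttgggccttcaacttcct
Hk2, chr6:82774455-82774704, minus strand: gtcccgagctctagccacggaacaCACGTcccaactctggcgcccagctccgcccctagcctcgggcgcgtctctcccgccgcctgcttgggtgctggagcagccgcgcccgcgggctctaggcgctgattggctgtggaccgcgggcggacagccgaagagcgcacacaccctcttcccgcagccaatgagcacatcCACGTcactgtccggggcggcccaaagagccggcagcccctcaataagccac

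Each *Aldoc* start and *Hk3* held 1 match and *Hk2* held 2, and the E-box CACGTG, which contains ACGTG, was found in none of these 4 windows. Promoter entries were on file for 35 of 36 members, and at least 1 of them held a core match in 31 members (88.6%), beside 57.8% of the 11616 tested genes with an entry and 41.5% of all 27025 genes with one. The core was found in all 14 members called higher, in all 4 called lower and in 13 of 17 members not called that have an entry. The letters stood in members called in either direction, and their part in the differences was not tested. A share by gene can rise with the number of entries per gene, which was 55 over 35 members and 32851 over all 27025 genes. By window, the core stood in 41 of 55 member promoters (74.5%) and in 38.6% of all 32851 promoters, and the E-box in 6 of 55 (10.9%) and in 6.02%. No share by window was taken for the tested genes. A match is a string of letters and not a bound site, and the median GC content was 59.2% for members, 58.8% for tested genes and 52.4% for all genes.

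In lower glycolysis, which ends in pyruvate, all 6 members had a positive fold change, except that *Eno1* turned to -0.38 when libraries were scaled on *Hprt*, *Pgk1* and *Actb* and to -0.12 on *Hprt* and *Actb*. Of these members, 3 of 6 were called higher, beside 17.8% of all genes tested. *Gapdh*, the glyceraldehyde 3-phosphate dehydrogenase and a customary reference gene, had 3544, 3082, 2467, 2210.4 and 1957 normalized counts in hypHSC 1 to 5 and 800.1, 739, 698, 724 and 573 in qHSC 1 to 5. The groups did not overlap, and the log2 fold change was 1.88 (SE 0.19, limma adjusted p = 1.73e-05). *Pgk1*, the phosphoglycerate kinase, also serves as a reference gene, and had 5231, 3830.4, 3171, 5613 and 5354 normalized counts in hypHSC 1 to 5 and 1607, 1421, 1727, 1852 and 1756 in qHSC 1 to 5. Here too no library of one group entered the range of the other, with a log2 fold change of 1.44 (SE 0.19, limma adjusted p = 8.94e-05). *Pgam1*, the phosphoglycerate mutase, had 8654 to 11790 normalized counts in hypHSCs and 3734 to 5105 in qHSCs, a log2 fold change of 1.32 (SE 0.15, limma adjusted p = 4.10e-05).

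These 3 genes are also those whose reads are hardest to place. Of all stretches of 59 bases, the read length, in the canonical transcript, 92.5% for *Pgam1*, 92.4% for *Pgk1* and 85.5% for *Gapdh* occur elsewhere in the GRCm39 genome, against none in 19 members and 61.5% for *Eno1*. Their counts hold only what the authors' counting assigned, and levels of these genes against other genes are uncertain. The remaining lower enzymes were not called in the limma fit of all 10 libraries. *Pkm*, the pyruvate kinase, had 69864, 82639, 79673, 37876 and 12342 normalized counts in hypHSC 1 to 5 and 19735 to 23606 in qHSCs. All hypHSC libraries but hypHSC 5 lay above the qHSCs, the log2 fold change was 1.11 (SE 0.46, limma adjusted p = 0.0672), and without hypHSC 5 it was 1.59 (limma adjusted p = 0.000218). *Eno1*, the common enolase, had 9497 to 47509 in hypHSCs and 17132 to 21441 in qHSCs (log2 fold change 0.56, SE 0.39), and *Eno2*, the neuronal enolase, had 3.02 to 123 and 0.86 to 11.1 (log2 fold change 2.26, SE 1.06, limma adjusted p = 0.0996), or 2.96 without hypHSC 5 (limma adjusted p = 0.0213). Both count models called *Pkm* and *Eno2* higher. *Pkm* had 1.425 in DESeq2 (adjusted p = 0.00164) and 1.431 in edgeR (adjusted p = 0.0139). *Eno2* had 3.12 in DESeq2 (adjusted p = 0.00423) and 3.10 in edgeR (adjusted p = 0.0298).

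**Figure D3:**
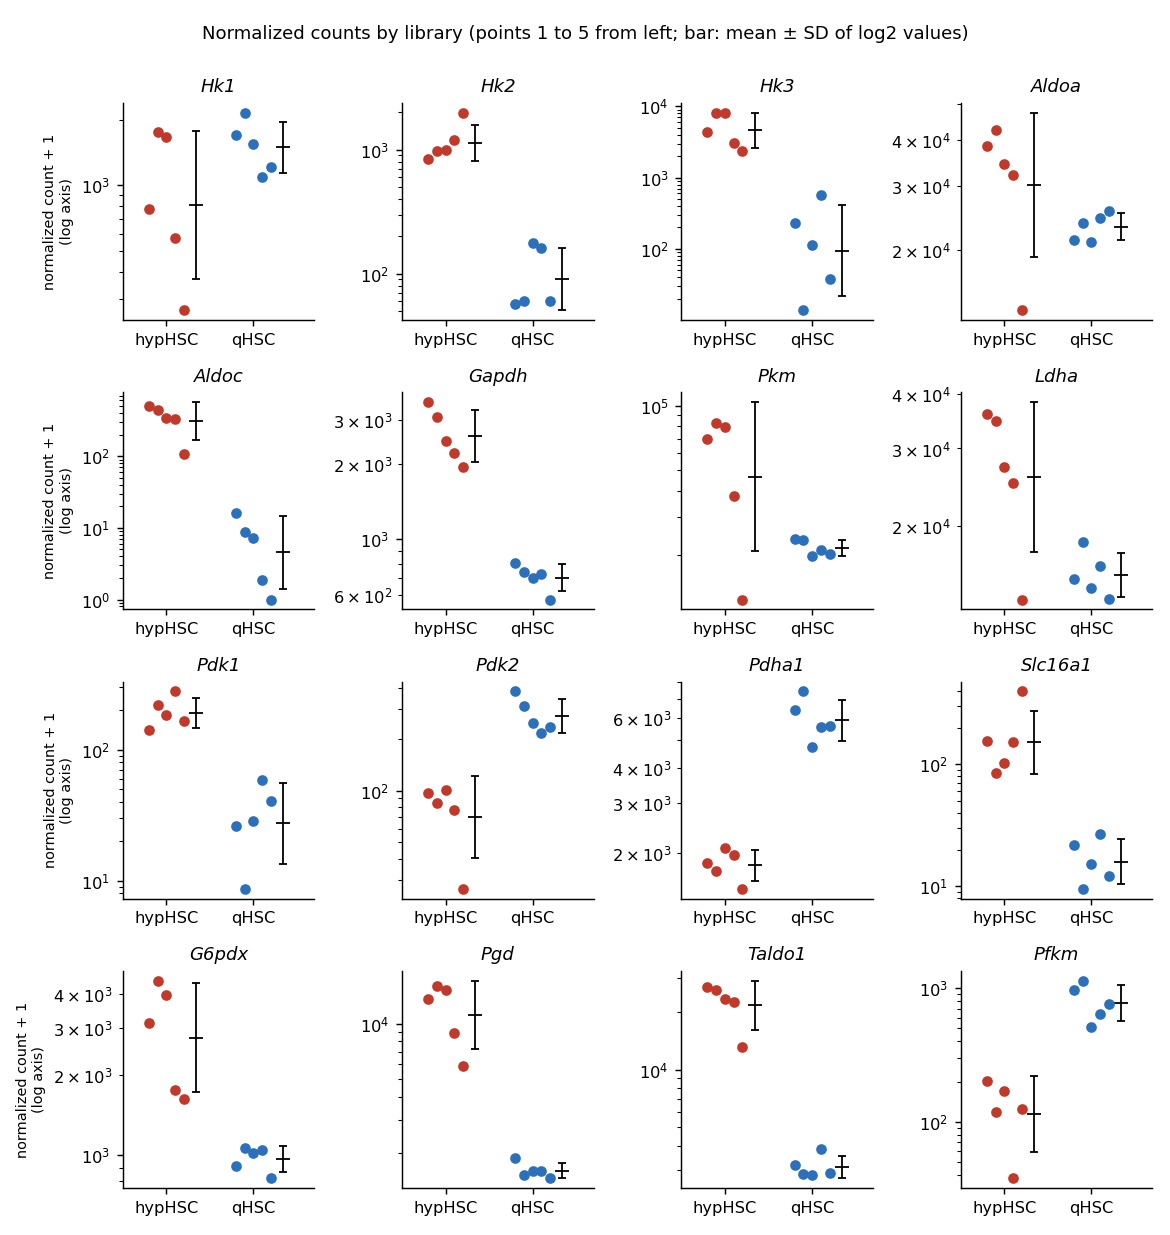
Normalized count plus 1 (log axis) of 16 genes in each library, with the mean and SD of the log2 values as a bar beside the 5 points of each group. *Hk3*, *Aldoc*, *Pgd* and *Taldo1* show groups far apart, while in *Aldoa*, *Pkm* and *Ldha* hypHSC 5 (the rightmost hypHSC point) falls to or below the qHSCs.

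For lactate, 2 of 4 members were called higher, a transporter and a dehydrogenase subunit, beside 17.8% of all genes tested. *Slc16a1*, the monocarboxylate transporter MCT1 that carries lactate in either direction (chromosome 3, 104545980 to 104565778), had 154, 83.9, 102, 152 and 396 normalized counts in hypHSC 1 to 5 and 20.8, 8.52, 14.2, 25.7 and 11.2 in qHSC 1 to 5. No qHSC library reached the hypHSC range, hypHSC 5 was highest, and the log2 fold change was 3.26 (SE 0.51, limma adjusted p = 0.000324). *Slc16a3*, the exporter MCT4, had 40.8 to 302 and 18.0 to 63.8 normalized counts, a log2 fold change of 1.58 (SE 0.61) and an adjusted p of 0.0523 in limma. It passed the threshold without hypHSC 4 (1.80, limma adjusted p = 0.0443) or hypHSC 5 (1.98, limma adjusted p = 0.00966). Both count models called *Slc16a3* higher, at 1.911 in DESeq2 (adjusted p = 0.003255) and 1.913 in edgeR (adjusted p = 0.0213). *Ldhb*, the lactate dehydrogenase subunit of oxidative tissues, was 1394 to 2281 normalized counts in hypHSCs and 440.1 to 853 in qHSCs without overlap (log2 fold change 1.6, SE 0.24, limma adjusted p = 0.000214). *Ldha*, the subunit of glycolytic tissues, had a log2 fold change of 0.74 (SE 0.26, limma adjusted p = 0.0328), below the fold threshold, and remained 92.8% ± 2.92 of the pair per exon length in hypHSCs and 96.0% ± 1.31 in qHSCs.

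At the gate to the mitochondrion, the kinases that switch off pyruvate dehydrogenase were called in opposite directions, the only such case among the 9 isoform families compared. *Pdk1* (chromosome 2, 71703566 to 71734202) had 140.1, 217, 182, 277 and 163 normalized counts in hypHSC 1 to 5 and 25.3, 7.67, 27.6, 57.3 and 39.7 in qHSC 1 to 5, with a log2 fold change of 2.80 (SE 0.50, limma adjusted p = 0.000864). *Pdk2* (chromosome 11, 94917085 to 94932197) had 95.7, 83.9, 99.8, 76.6 and 25.7 in hypHSC 1 to 5 and 378, 309, 248, 216 and 235 in qHSC 1 to 5, with a log2 fold change of -1.95 (SE 0.40, limma adjusted p = 0.00200). For both genes the groups stood apart, hypHSCs above for *Pdk1* and below for *Pdk2*. *Pdk1* was 71.7% ± 10.8 of the pair per exon length in hypHSCs and 10.6% ± 7.10 in qHSCs. With canonical transcript lengths these shares were 54.3% ± 13.7 and 5.18% ± 3.64. *Pdha1*, the catalytic subunit that these kinases phosphorylate (chromosome X), was 1496 to 2077 normalized counts in hypHSCs and 4740.3 to 7414 in qHSCs without overlap (log2 fold change -1.70, SE 0.16, limma adjusted p = 1.01e-05).

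The pentose phosphate pathway was the role with the most members called higher in hypHSCs, 5 of 6, beside 17.8% of all genes tested. *G6pdx*, *Pgls* and *Tkt* lost their calls when scaled on *Hprt*, *Pgk1* and *Actb* or on *Hprt* and *Actb*. They also lost them under limma's treat, which required a fold change beyond the threshold. The entry enzyme of the pathway, *G6pdx*, the glucose 6-phosphate dehydrogenase (chromosome X, 73453090 to 73472767), had 3128, 4489, 3973, 1748 and 1626 normalized counts in hypHSC 1 to 5 and 913, 1061, 1016, 1051 and 822 in qHSC 1 to 5. The groups did not overlap, hypHSC 4 and 5 came closest to the qHSCs, and the log2 fold change was 1.51 (SE 0.29, limma adjusted p = 0.00128). *Pgd*, the next NADPH-forming dehydrogenase (chromosome 4, 149234448 to 149251162), had 13519.5, 15906, 15249, 8887 and 5864 normalized counts in hypHSC 1 to 5 and 1858, 1509, 1588, 1597 and 1459.6 in qHSC 1 to 5. Its lowest hypHSC library was still above the highest qHSC library, with a log2 fold change of 2.80 (SE 0.26, limma adjusted p = 9.13e-06). *Pgls*, the lactonase between them, overlapped between the groups (98.1 to 401 against 42.5 to 104 normalized counts, log2 fold change 1.39, SE 0.46, limma adjusted p = 0.0263). The *Pgls* call was lost without hypHSC 4 (1.24, adjusted p = 0.0624), qHSC 1 (1.21, adjusted p = 0.0656) or qHSC 2 (1.25, adjusted p = 0.0632), and with equal totals (1.04, adjusted p = 0.0617), all in limma.

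In the non-oxidative arm, *Taldo1*, the transaldolase (chromosome 7, 140972073 to 140982889), had 27036, 26104, 23344, 22507 and 13056 normalized counts in hypHSC 1 to 5 and 3171, 2841, 2808, 3856 and 2892 in qHSC 1 to 5. Every hypHSC library was far above the qHSCs, and the log2 fold change was 2.81 (SE 0.21, limma adjusted p = 1.82e-06). *Tkt*, the transketolase, had 6244 to 11706 and 2769.7 to 3878 normalized counts, a log2 fold change of 1.29 (SE 0.20, limma adjusted p = 0.000363). *Rpia*, the ribose 5-phosphate isomerase, was not called (39.3 to 81.5 against 12.8 to 74.4 normalized counts, log2 fold change 0.81, SE 0.52).

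Compared per exon length as FPKM, *Taldo1* was the highest of the 36 genes in hypHSCs (223 ± 67.4, SD, n = 5) and *Aldoa* the highest in qHSCs (132 ± 6.57). *Aldoa* was 146 ± 56.7 FPKM in hypHSCs, where *Ldha* was 140 ± 52.0, *Pgam1* 115 ± 19.6, *Tpi1* 115 ± 30.2 and *Pkm* 105 ± 61.8. The SDs are between libraries, in each of which all these genes were measured, so they do not measure differences between genes. Those differences were not tested. In qHSCs, *Taldo1* was 39.0 ± 5.95 FPKM, below *Ldha* at 100.4 ± 13.1 and *Tpi1* at 85.2 ± 8.80. The exon lengths are those of the merged exons of all annotated transcripts, with shared bases counted once. With canonical transcript lengths *Pkm* was the highest in hypHSCs at 575 FPKM, ahead of *Aldoa* at 521 and *Taldo1* at 430.2. *Aldoa* stayed the highest in qHSCs at 469. Most stretches of *Pgam1*, *Pgk1*, *Gapdh* and *Eno1* occur elsewhere in the genome, so the places of these genes in the ranking are uncertain.

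The hypHSC libraries differed more among themselves than the qHSC libraries, with the larger SD of log2 values in hypHSCs for 28 of 36 members. HypHSC 5 was the lowest hypHSC library for 25 members and the highest for 5, among them *Hk2*, *Slc16a1* and *Pgls*. HypHSC 4 and 5 were the lowest pair for 24 members. The counts so far in this paragraph were not taken over all genes tested, so they do not set the members apart from other genes. HypHSC 4 and 5 belong to the 12-week mice with hypHSC 3, and the 2 libraries of 13 weeks lay above all 3 of 12 weeks for 11 members, including *Gapdh*, *Aldoa*, *Eno1*, *Ldha* and *Taldo1*, and below for 2, *Hk2* and *Pfkfb1*. These last counts are 30.6% and 5.56% of the members, against 15.6% and 6.34% of all genes tested. The 13-week libraries also had the highest mitochondrial shares of reads (12.8% and 7.27%, against 2.21% to 3.42% at 12 weeks) and the most reads on entries without a symbol (29.1% and 20.1%, against 10.8% to 13.2%). Diet time was not compared by a test, and the part of these read shares was not tested. HypHSC 5 also had the lowest macrophage marker sum of the hypHSCs (1172366) and the highest hepatocyte marker sum of all libraries (267782), and the part of either in its levels was not tested. Without hypHSC 5, 19 members were called higher and 3 lower, beside 2716 higher and 3179 lower of the 14630 genes tested.

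**Figure D4:**
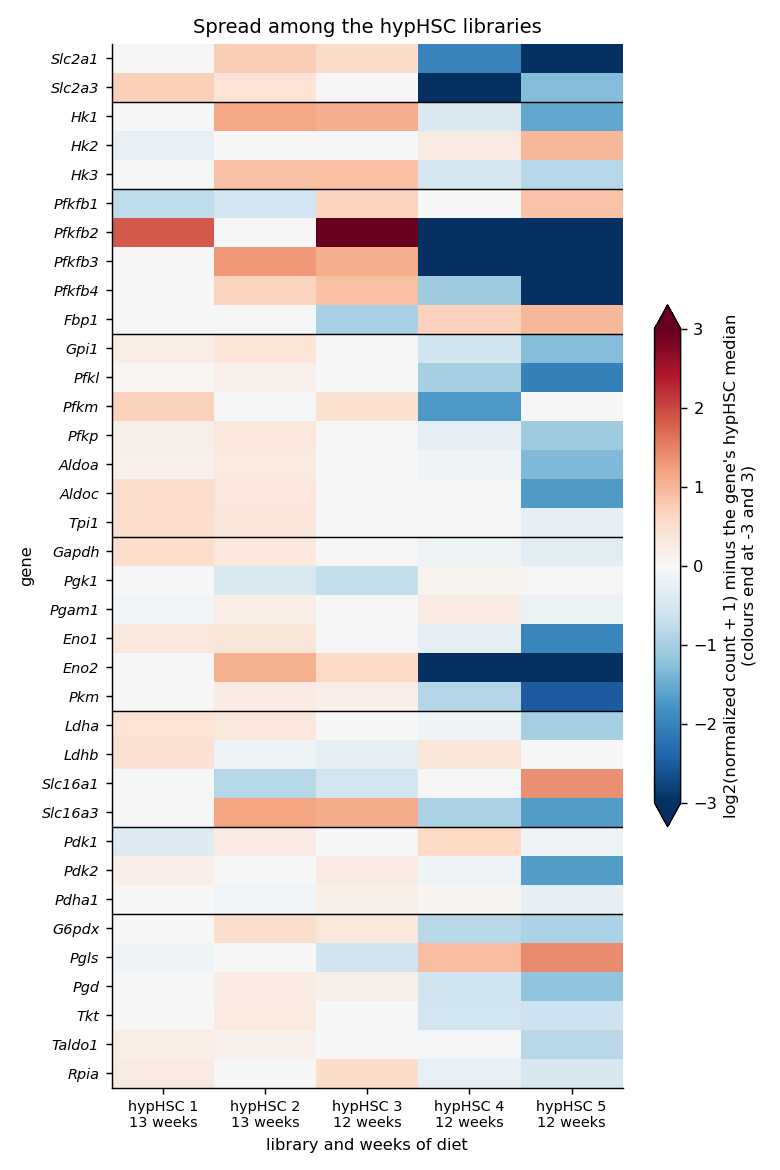
Log2(normalized count + 1) of each gene in each hypHSC library minus the gene's hypHSC median (colour, red above and blue below the median), with genes grouped by role between the lines. The columns of hypHSC 4 and 5 are blue for most genes, and *Hk2*, *Slc16a1* and *Pgls* are the reverse in hypHSC 5.

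Macrophage marker level and members were also set side by side within qHSCs, where no diet differs. Summed counts of 5 resident Kupffer cell markers were 37358 in qHSC 4, 16617 in qHSC 1 and 1058 to 1620 in other qHSCs. The range in hypHSCs was 14397 to 26274, and 2 of the 5 were called higher there. How far the macrophage signals of the groups are alike was not tested. *Hk3* was highest in qHSC 4 (578) and qHSC 1 (227), the libraries with macrophage sums of 130877 and 57285, and lowest in qHSC 2 (12.8), which had the lowest sum of 7353. *Taldo1* and *Pdk1* were also highest in qHSC 4, at 3856 and 57.3 normalized counts. In qHSC 1, *Taldo1* was next (3171), but *Pdk1* (25.3) was below qHSC 3 (27.6) and qHSC 5 (39.7). *Slc16a1* (25.7 and 20.8), *Slc2a3* (79.6 and 82.4) and *Fbp1* (465 and 715) had their highest qHSC values in qHSC 4 and qHSC 1. For *Hk1*, qHSC 4 was instead the lowest qHSC library (1092), and *Hk2* was highest in qHSC 3 (175). The members named in this paragraph are examples, and such orders were not counted over all members. *Pgd* was highest in qHSC 1 (1858) and had 1597 in qHSC 4, and *G6pdx* was highest in qHSC 2 (1061). With qHSC 1 and 4 left out, an alternative chosen after seeing the data, 13 members were called higher and 3 lower. Of the 14630 genes tested, 2391 were higher and 2483 lower in that fit. The fold changes then were 2.87 for *Pgd*, 2.93 for *Taldo1*, 1.52 for *G6pdx*, 3.15 for *Pdk1* and 3.73 for *Hk2*.

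**Figure D5:**
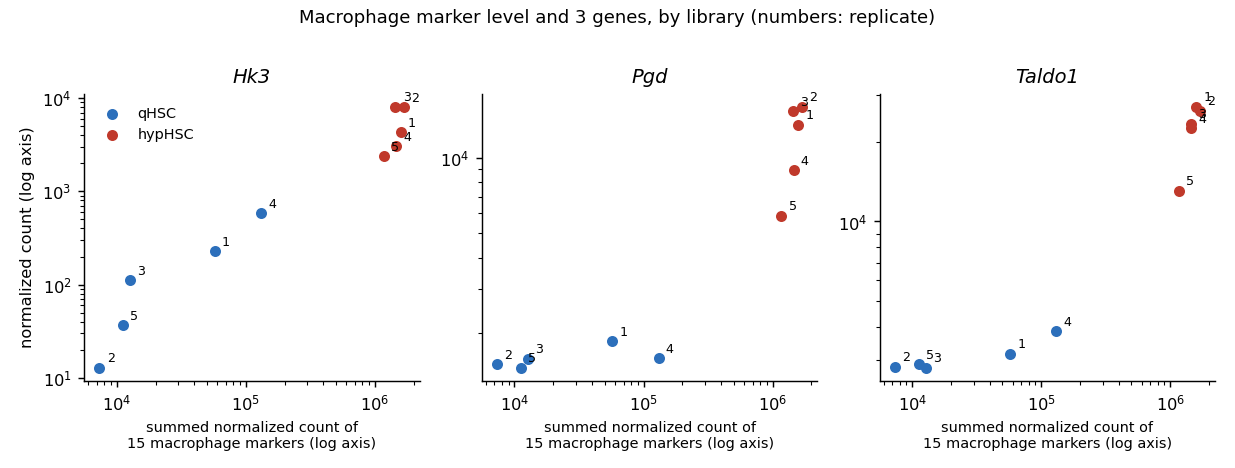
Normalized count of *Hk3*, *Pgd* and *Taldo1* (vertical log axes) against the summed normalized count of 15 macrophage markers (horizontal log axes) in each library, numbered by replicate. In qHSCs *Hk3* runs from 12.8 at a marker sum of 7353 to 578 at 130877, while *Pgd* lies between 1459.6 and 1858, the highest in qHSC 1. The groups form separate clusters, so no correlation was computed.

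The wider pathway was described by 106 other genes of the table in 10 lists, of which 95 were tested, 15 were called higher (15.8%) and 21 lower (22.1%), with a median log2 fold change of -0.46. These shares are near the 17.8% and 21.7% of all genes tested, so the counts below describe the lists and set none of them apart. Among other transporters, 0 of 8 tested were higher and 2 lower (*Slc2a10*, -2.27, and *Slc2a13*, -3.11). Other glycolytic enzymes gave 2 higher and 2 lower of 12, with the enolase *Eno4* (3.66) and the fructose 2,6-bisphosphatase *Tigar* (1.66) higher and the liver and red cell pyruvate kinase *Pklr* (-4.29) lower. Gluconeogenesis gave 0 higher and 2 lower of 6, glucose 6-phosphatase *G6pc* (-2.34) and pyruvate carboxylase *Pcx* (-2.05). Of 4 other lactate genes tested, 2 were higher. *Emb*, embigin, a chaperone of monocarboxylate transporters, had 2288 to 3206 normalized counts in hypHSCs and 1.81 to 33.4 in qHSCs (log2 fold change 7.78, SE 0.58, limma adjusted p = 1.71e-06), and the transporter *Slc16a7* had a log2 fold change of 2.79.

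Pyruvate entry and the pyruvate dehydrogenase complex gave 0 higher and 2 lower of 11, the kinase *Pdk4* (-2.33) and the phosphatase *Pdp1* (-1.59), so that a switch-off and a switch-on enzyme were lower together. Other pentose phosphate genes gave 1 higher, ribokinase *Rbks* (1.19), and 1 lower, the endoplasmic reticulum dehydrogenase *H6pd* (-1.91), of 8. Glycogen genes gave 4 higher and 2 lower of 17, and the largest changes were in the muscle phosphorylase kinase subunit *Phka1* (-4.56), the muscle phosphorylase *Pygm* (-3.70) and the liver phosphorylase kinase subunit *Phka2* (2.37). Of 4 fructose and polyol genes, *Sord*, the sorbitol dehydrogenase, was higher (1.15).

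Regulators of glycolytic transcription gave 2 higher and 5 lower of 13. *Hif1a*, the hypoxia-inducible factor subunit best known for inducing glycolysis, was not called, with 592 ± 120 normalized counts in hypHSCs against 559 ± 75.6 in qHSCs (log2 fold change 0.07, SE 0.20, limma adjusted p = 0.78). It stands outside the rule for named genes and was chosen after its values were seen. Its relative *Epas1* (-5.36) was lower, as was *Txnip* (-1.47), an inhibitor of glucose uptake, and the coactivator *Ppargc1a* was higher (3.98). Hypoxia-inducible genes outside glycolysis gave 3 higher and 5 lower of 12, with *Vegfa* (4.01) and *Car9* (4.82) higher and the peptide *Adm* (-3.80) lower.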

How the data were processed

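Poly(A) RNA of 5 hypHSC and 5 qHSC preparations was sequenced with paired reads of 59 bases from unstranded libraries. The authors aligned the reads with STAR to mm39, counted them per gene with featureCounts (Subread 1.5.0) and normalized them with DESeq2, and the deposited table holds these normalized counts, a signal relative to each library's size factor. Every value was a whole number of reads (within 0.02 reads) once multiplied by the size factor. The submitters' processing notes also name FastQC 0.11.2, Picard 1.119 and SAMtools 1.0.

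Entries that carry a gene symbol and reached 10 normalized counts in 5 or more libraries (14630) were fitted as log2(normalized count + 1) with limma 3.58.1 in R 4.3.3 (lmFit, and eBayes with trend), hypHSC against qHSC, with Benjamini-Hochberg adjustment over all genes tested. A fold change is thus on the log2(normalized count + 1) scale, and that of a low gene depends on the added count. *Aldoc*, for example, had 6.41 with a pseudocount of 0.5 and 4.39 with 10. It can also be larger in size than in the count models, as for *Pfkfb2* (-3.01, against -1.21 in DESeq2 and -1.18 in edgeR). The fit was tested on simulated data. Single values were compared by an exact two-sided permutation test. FPKM used the recovered reads and exon lengths of GENCODE vM39 (GRCm39). Alternatives were DESeq2 1.42.0 and edgeR 4.0.16 on the recovered reads, other scalings, filters and pseudocounts, and libraries left out. A floor of 3 reads equals 2.25 to 4.54 normalized counts, and covers counting error only.

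Members and gene lists were chosen with earlier results of these data known. Values were printed per library for the 10 called members with the largest fold changes, for isoform families called in opposite directions, for *Gapdh*, *Pgk1* and *G6pdx*, and for the members highest per length, and at most 3 called genes were named for each pathway list. *Pkm* and *Pfkfb2* were added after their values were seen. Protein sequences were not used here.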

Additional observations from a re-analysis of the deposited data

Results flagged for a closer look

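Single libraries stood apart from the other 4 of their group in 7 of 72 groups checked, where the gap to the nearest library, as a share of the group's range of log2 values, passed Dixon's limit. Chance gives about 1 in 20 groups if they are independent. These groups share the same 10 libraries, so 7 of 72 cannot be set against that rate. HypHSC 5 was the low library in 5 of the 7, with shares of 0.803 for *Pdk2*, 0.751 for *Aldoa*, 0.748 for *Taldo1*, 0.741 for *Aldoc* and 0.724 for *Eno1*. In qHSCs, *Pgam1* was high in qHSC 5 (0.794) and *Eno1* low in qHSC 3 (0.726). Outside the genes with a symbol, 16392 entries without one had more than 3 reads in at least 1 library. They took 10.8% to 29.1% of the reads in hypHSCs and 8.98% to 10.2% in qHSCs.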

How the results depend on the processing

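Of the 18 called members, 9 kept their call in every one of the 27 alternatives that tested them. The 18 calls became 10 (8 higher, 2 lower) when limma's treat required a fold change beyond the threshold. Calls were 7 higher and 9 lower with scaling on *Hprt*, *Pgk1* and *Actb*, and 8 and 8 on *Hprt* and *Actb*. Directions turned on the first scaling for *Gpi1* (-0.13), *Fbp1* (-0.41), *Aldoa* (-0.56), *Tpi1* (-0.19), *Eno1* (-0.38), *Ldha* (-0.20) and *Rpia* (-0.10), and on the second for *Fbp1* (-0.16), *Aldoa* (-0.31) and *Eno1* (-0.12). *Slc2a1* turned with DESeq2 (0.40), edgeR (0.41) and the 13-week libraries alone (0.94), and ranged from -1.25 to 0.39 with 1 library left out. *Slc2a3* turned with a pseudocount of 10 (0.091), DESeq2 (0.37), edgeR (0.35), the 13-week libraries alone (1.44) and without qHSC 1 and 4 (0.44), and ranged from -0.85 to 0.84 with 1 library left out. *Pfkfb1* turned with the 12-week libraries alone (0.020) and *Pfkfb3* with the 13-week ones (0.31). The cause was not tested. With 1 library left out, 16 to 22 members were called, 13 to 19 higher and 3 to 5 lower. A mean of at least 100 normalized counts left 30 of 36 members tested. Over all genes, 5779 were called (2602 higher, 3177 lower), 3091 by treat, 9291 with entries without a symbol included, 6245 with equal totals (4223 of them lower), 8460 on *Hprt*, *Pgk1* and *Actb* (1471 and 6989) and 7200 on *Hprt* and *Actb* (1570 and 5630). DESeq2 and edgeR each called 21 members, 18 higher and 3 lower. Both added *Pfkfb4*, *Eno2*, *Pkm* and *Slc16a3* and lost *Pfkl*. Over all genes, DESeq2 called 3014 higher and 2847 lower, and edgeR 2786 and 2550. Libraries of equal replicate number correlated at 0.008 to 0.129 in their deviations from the group means, so the numbers were not taken as pairs. With the replicate number as a block, 20 members were called, 16 higher and 4 lower, beside 2557 and 3229 over all genes. Only replicate 5 correlated best with its own number. At most 3 reads were found in 8 of 360 member values, in *Slc2a3*, *Pfkfb2*, *Aldoc* and *Eno2*, which limits their fold changes.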
